A study of Mus musculus with 12 samples.

Results

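The genes read here, 9 in all, belong to the hedgehog and parathyroid hormone-related peptide signalling pair in the femur of growing mice: Ihh, Ptch1, Smo, Gli1, Gli2, Gli3, Hhip, Pthlh and Pth1r. They were found by symbol in both deposited tables, and the transcripts of a symbol were summed. All 9 were present among the 18335 symbols that the tables share. The samples were the diaphysis (the shaft) and the metaphysis (the region next to the growth plate) of femurs from 5-week-old males of mixed background. Control mice were labelled wild type (WT, Dlx3+/+), and mutant mice carried Dlx3Oc-cKO, a conditional deletion of Dlx3. Dlx3 encodes a homeodomain transcription factor of the osteoblast lineage. From what is known of the study, Oc stands for the osteocalcin promoter, which drives Cre in maturing osteoblasts, so the deletion is not aimed at chondrocytes. The labels do not say whether controls carried Cre. The 12 library titles start with 12 different numbers, and those of the metaphysis carry the letters GP, but the labels explain neither, nor do they say that the libraries came from separate animals. There were 3 libraries in each of 4 groups, and p-values measure only the spread between these libraries.

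Indian hedgehog, the product of Ihh, is secreted by prehypertrophic chondrocytes of the growth plate. It binds the receptor Ptch1, which then no longer holds back Smo, and Smo passes the signal to the Gli transcription factors. Ptch1, Gli1 and Hhip are themselves classical targets of the pathway. Parathyroid hormone-related peptide, the product of Pthlh, signals through Pth1r and delays chondrocyte hypertrophy, which keeps Ihh-producing cells at a distance. Pth1r is also the receptor for parathyroid hormone on osteoblasts and osteocytes.

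Levels are given as RPKM, reads per kilobase of transcript and per M (mega) of reads, so genes can be set side by side per length. Differences are log2 of (RPKM + 0.1), cKO minus WT, which understates the change of low genes. They were tested in limma, two-sided, with Benjamini-Hochberg adjustment over all genes that reached 1 RPKM in 3 or more of a region's 6 libraries. The threshold was an adjusted p of 0.05. Depth, as inferred from the lowest values, ran from 18.6 to 53.9 M reads over the diaphysis libraries and from 24.65 to 34.7 M reads over those of the metaphysis. Transcripts of osteoblasts and osteocytes were present in every library, and the summed osteoblast list reached 13185 to 21341 RPKM in the metaphysis. Dlx3 followed the labels. In the metaphysis it stood at 8.37, 8.90 and 10.1 RPKM in WT and at 1.98, 2.80 and 3.24 RPKM in cKO. In the diaphysis it stood at 3.22, 7.64 and 13.1 RPKM in WT and at 0.763, 1.55 and 1.17 RPKM in cKO. WT diaphysis replicate 1 stood apart from the other libraries of its group. Its Col1a1, the main collagen of bone, was 1801 RPKM against 8279 and 11230 RPKM, and all 9 members had their lowest WT diaphysis level in it. Diaphysis values are given without it as well where that moves them.

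In the metaphysis the ligand, the signal transducer, both activating Gli genes and the parathyroid hormone receptor were higher in the mutant. Ihh, Smo, Gli1, Gli2 and Pth1r rose by 1.56-fold to 2.75-fold in the ratio of group means. The receptor Ptch1 and the mainly repressive Gli3 had no overlap between genotypes, as was so for 18.7% of genes in the higher direction, but did not pass the test. Hhip and Pthlh were low and overlapped. Of the 9 members 7 passed the filter, in all 6 libraries each, and 5 of these 7 were called higher and 0 lower. Over all 12641 genes tested, 11.4% were called, 7.51% higher and 3.89% lower.

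Ihh lies at chr1:74991891-74998246 on the minus strand (mm9). Its metaphysis level was 2.22, 2.12 and 1.95 RPKM in WT and 5.86, 4.13 and 6.72 RPKM in cKO. Every mutant library lay above every WT library, and the lowest mutant level was 1.86 times the highest of WT. The log2 difference was 1.34 ± 0.19 (SE, n = 3 against 3, limma adjusted p = 0.0121), the 72nd highest of 12641 genes. These levels rested on about 131 to 523 reads per library.

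Ptch1, which is both the receptor for Ihh and a target of the pathway, lies at chr13:63610261-63674474 on the minus strand. Its metaphysis level was 4.70, 4.25 and 6.34 RPKM in WT and 8.04, 6.48 and 9.20 RPKM in cKO. The groups only just failed to overlap, and the log2 difference of 0.63 ± 0.19 (SE, limma adjusted p = 0.0688) missed the threshold.

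Smo, the membrane protein that relays the signal, lies at chr6:29685694-29711365 on the plus strand. It was the tightest of the members, at 11.8, 11.7 and 12.4 RPKM in WT and at 19.0, 18.03 and 19.0 RPKM in cKO. The genotypes were well apart, with a log2 difference of 0.64 ± 0.08 (SE, limma adjusted p = 0.0109).

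The 3 Gli genes encode the transcription factors at the end of the pathway. Gli1 (chr10:126766945-126778645, minus strand) is an activator made in response to the signal. It was at 2.53, 2.81 and 2.62 RPKM in WT and at 5.30, 4.43 and 6.06 RPKM in cKO, a log2 difference of 0.95 ± 0.14 (SE, limma adjusted p = 0.0136). Gli2 (chr1:120730709-120950196, minus strand), the main primary activator, was at 1.07, 1.08 and 1.17 RPKM in WT and at 2.07, 1.76 and 2.02 RPKM in cKO. Its log2 difference was 0.77 ± 0.17 (SE, limma adjusted p = 0.0322). Both had no overlap between genotypes. Gli3 (chr13:15555068-15821859, plus strand) was at 1.37, 1.301 and 1.86 RPKM in WT and at 2.61, 2.07 and 2.31 RPKM in cKO. Its groups did not overlap either, but the log2 difference of 0.60 ± 0.19 (SE, limma adjusted p = 0.0809) missed the threshold.

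Hhip encodes a membrane protein that binds hedgehog ligands and limits their reach. It lies at chr8:82490014-82581905 on the minus strand. Its metaphysis level was 0.444, 0.628 and 0.405 RPKM in WT and 0.507, 0.677 and 0.715 RPKM in cKO, so the groups overlapped. Under the filter, it was compared by an exact permutation test of the log2 difference of 0.31 (two-sided p = 0.2). With 3 libraries against 3 that test cannot go below 0.1.

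**Figure D1:**
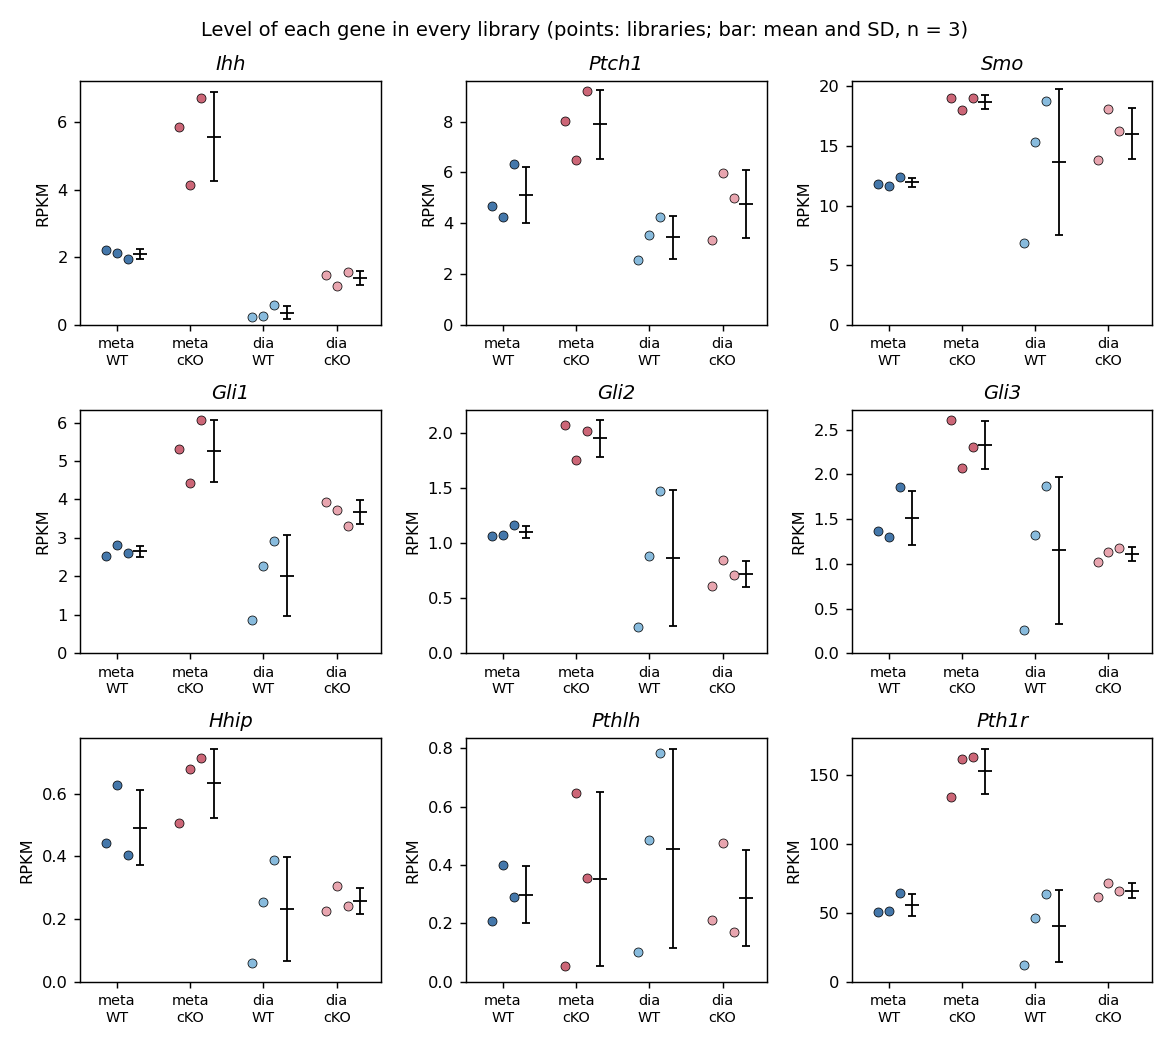
RPKM (y axes, from 0) of each of the 9 genes in every library of the metaphysis (meta) and diaphysis (dia), WT and cKO; points are libraries and bars the mean and SD of 3. In the metaphysis Pth1r runs from 50.7 to 64.8 RPKM in WT and from 134 to 163 RPKM in cKO, while in the diaphysis WT replicate 1 is the lowest WT point of every panel.

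The receptor Pth1r had the highest level of the 9 genes in each of the 4 groups and the widest metaphysis difference among them. It lies at chr9:110624592-110649649 on the minus strand. Its metaphysis level was 50.7, 51.3 and 64.8 RPKM in WT and 134, 162 and 163 RPKM in cKO. The lowest mutant library was 2.07 times the highest WT library, and the log2 difference was 1.46 ± 0.13 (SE, limma adjusted p = 0.00554), the 45th highest of 12641 genes.

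The ligand Pthlh (chr6:147200623-147212689, minus strand) was the lowest member in the metaphysis. It was at 0.208, 0.400 and 0.289 RPKM in WT and at 0.0534, 0.648 and 0.356 RPKM in cKO. The mutant libraries lay on both sides of all WT libraries. The log2 difference was -0.065 (exact two-sided permutation p = 0.9). Over all 12 libraries its level rested on about 2.11 to 39.1 reads.

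The tables hold 3 RefSeq transcripts of Pth1r and 1 of each other member. In the metaphysis, NM_001083936 made up 42.0%, 23.3% and 30.0% of the summed Pth1r level in WT and 34.2%, 39.1% and 39.5% in cKO. The genotypes overlapped in this share. In the diaphysis the same transcript made up 18.9% to 21.9% in all 6 libraries. NM_001083935 made up 31.1% to 41.1% of the level in the metaphysis and 40.8% to 45.8% in the diaphysis. NM_011199 made up 23.8% to 35.5% and 32.4% to 39.3%. All 3 transcripts had higher mean levels in the mutant metaphysis: 49.7 against 20.8 RPKM for NM_001083935, 57.9 against 17.6 RPKM for NM_001083936, and 45.6 against 17.2 RPKM for NM_011199. The deposited levels split reads between transcripts that share most of their exons, and how they were split is not given in the sources used here.

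**Figure D2:**
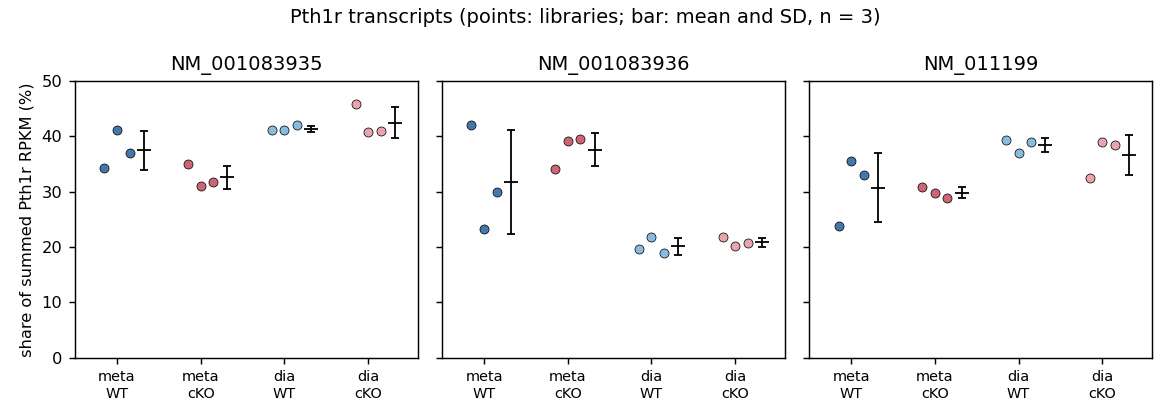
Share of the summed Pth1r level (%, y axis from 0) carried by each of its 3 RefSeq transcripts in every library; points are libraries and bars the mean and SD of 3. NM_001083936 lies at 18.9% to 21.9% in the diaphysis and at 23.3% to 42.0% in the metaphysis, with both genotypes overlapping in each region.

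Pth1r has 3 annotated start windows, and it and Ihh had the widest metaphysis differences of the 9 genes, so the sequence before their starts is shown. Each runs from 250 bases before the annotated start through 20 bases from it, 5′ to 3′, from RefSeq on GRCm38.p6, a later build than the mm9 of the tables. Capitals mark TAATTA, a core that many homeodomain proteins recognise.
Pth1r window 1 (chr9:110747126-110747395, minus strand): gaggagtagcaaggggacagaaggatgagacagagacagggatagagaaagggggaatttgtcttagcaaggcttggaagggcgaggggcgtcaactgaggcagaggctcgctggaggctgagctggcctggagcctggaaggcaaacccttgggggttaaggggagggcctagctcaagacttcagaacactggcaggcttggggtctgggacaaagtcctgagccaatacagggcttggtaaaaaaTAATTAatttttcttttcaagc
Pth1r window 2 (chr9:110743667-110743936, minus strand): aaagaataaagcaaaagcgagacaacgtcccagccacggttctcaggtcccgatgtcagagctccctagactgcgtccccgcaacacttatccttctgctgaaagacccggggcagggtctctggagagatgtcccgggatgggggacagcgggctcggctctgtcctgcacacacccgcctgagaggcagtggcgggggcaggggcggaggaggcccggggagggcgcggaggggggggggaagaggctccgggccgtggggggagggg
Pth1r window 3 (chr9:110742591-110742860, minus strand): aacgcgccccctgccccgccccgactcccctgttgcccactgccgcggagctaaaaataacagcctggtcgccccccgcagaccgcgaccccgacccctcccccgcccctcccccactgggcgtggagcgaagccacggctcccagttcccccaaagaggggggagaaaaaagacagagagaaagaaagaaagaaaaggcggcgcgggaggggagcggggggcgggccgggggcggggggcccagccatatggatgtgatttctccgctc
Ihh (chr1:74951653-74951922, minus strand): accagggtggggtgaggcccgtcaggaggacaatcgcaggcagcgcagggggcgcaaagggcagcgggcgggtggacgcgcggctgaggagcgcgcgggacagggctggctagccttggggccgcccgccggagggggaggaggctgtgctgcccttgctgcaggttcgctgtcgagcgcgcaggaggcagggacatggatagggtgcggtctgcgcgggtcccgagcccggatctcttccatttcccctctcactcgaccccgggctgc
Window 1 of Pth1r holds TAATTA, beginning 2 bases before the annotated start, and the others hold none. As printed, window 1 has 53.3% G and C, against 67.4% and 68.9% in the other Pth1r windows and 72.2% in that of Ihh. RefSeq windows matched 8 of the 9 members, 10 windows in all, and were searched on both strands over 300 bases for 6 motifs chosen after the windows had been read. TAATTA was found in 1 of the 10, as in 5.29% of all 32851 windows. TAATTG was in none (8.0% of all). The Gli nonamer GACCACCCA was in none (0.253% of all), and ACCACCC, which lies within it, was in that of Gli2 (4.61% of all). The cyclic AMP response element TGACGTCA was in that of Hhip (1.79% of all), and ACCACA, a Runx core, in that of Gli3 (16.8% of all). A match is only a run of letters, and the tables do not tie the 3 Pth1r transcripts to a start.

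In the diaphysis no member passed the test, and neither did any other gene. Of the 9 members 6 passed the filter, Ihh only through its 3 mutant libraries, so that it had to differ to be tested. Of 12540 genes 0 were called (0%) by limma, and 86 (0.686%) had an unadjusted p under 0.05. Among the other 5 members tested, Gli1 alone was below that value, and it alone had no overlap between genotypes, as had 2.24% of genes tested in the higher direction. Ihh did not overlap either, which is given as a description.

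Ihh in the diaphysis was at 0.217, 0.271 and 0.588 RPKM in WT and at 1.47, 1.15 and 1.56 RPKM in cKO. All mutant libraries lay above all WT libraries, and without WT replicate 1 the ratio of means was 3.24 in place of 3.88. The log2 difference was 1.78 ± 0.42 (SE, limma unadjusted p = 0.00329, adjusted p = 1.00). The WT levels rested on about 14.0 to 45.2 reads.

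Gli1 in the diaphysis was at 0.872, 2.27 and 2.92 RPKM in WT and at 3.94, 3.73 and 3.32 RPKM in cKO. The groups did not overlap, with or without WT replicate 1. The log2 difference was 0.98 ± 0.41 (SE, limma unadjusted p = 0.0461, adjusted p = 1.00) with all libraries and 0.49 ± 0.21 without WT replicate 1.

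The other members overlapped between genotypes in the diaphysis. Pth1r was at 11.97, 46.5 and 63.5 RPKM in WT and at 61.3, 71.5 and 66.1 RPKM in cKO, a log2 difference of 1.01 ± 0.55 that was 0.28 ± 0.19 without WT replicate 1. Ptch1 was at 2.56, 3.55 and 4.24 RPKM in WT and at 3.33, 5.97 and 4.98 RPKM in cKO. Both receptors still overlapped between genotypes without the low library. Smo was at 6.88, 15.4 and 18.8 RPKM in WT and at 13.8, 18.1 and 16.2 RPKM in cKO, and its log2 difference went from 0.34 ± 0.35 to -0.091 ± 0.19 without WT replicate 1. Gli3 was at 0.257, 1.33 and 1.87 RPKM in WT and at 1.02, 1.14 and 1.18 RPKM in cKO. Gli2 was at 0.243, 0.886 and 1.48 RPKM in WT and at 0.608, 0.845 and 0.716 RPKM in cKO, under the filter. In each of these genes WT replicate 1 was the lowest library of all. Hhip was at 0.0585, 0.253 and 0.387 RPKM in WT and at 0.225, 0.305 and 0.243 RPKM in cKO. Pthlh was at 0.1004, 0.486 and 0.782 RPKM in WT and at 0.213, 0.475 and 0.170 RPKM in cKO. By exact two-sided permutation of their log2 levels, p was 1 for Gli2, 0.9 for Hhip and 0.7 for Pthlh. Without WT replicate 1 the mutant libraries of Gli2, Gli3 and Pthlh lay wholly below the 2 left in WT, with ratios of means of 0.612, 0.696 and 0.451. The same held for 9.23% of genes tested, and 8.71% lay wholly above.

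The genotype differences of the metaphysis and the diaphysis were then compared with each other in one fit of all 12 libraries. Of 12321 genes 0 (0%) were called by limma, 495 (4.02%) had an unadjusted p under 0.05, and no member was among those. The metaphysis difference minus the diaphysis difference was -0.44 ± 0.41 (SE) for Ihh and -0.023 ± 0.47 for Gli1. For Pth1r it was 0.46 ± 0.64 (SE). A difference between the regions was thus not shown for any member with all libraries. Without WT diaphysis replicate 1, Pth1r passed at 1.18 (limma adjusted p = 0.0493), as did 241 genes in all.

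The mean of both regional differences was called for Ihh alone of the members. It was 1.56 ± 0.21 (SE, limma adjusted p = 0.0145), and of 12321 genes 0.162% were called, 0.13% higher. Ihh entered this fit only because its mutant diaphysis libraries reached the filter, and with no filter at all its limma adjusted p was 0.0193. Nothing is read from its call against that background. Gli1 had 0.96 ± 0.23 (limma adjusted p = 0.226) and Pth1r 1.24 ± 0.32 (limma adjusted p = 0.291). Both lay above the threshold with all 12 libraries. Without WT diaphysis replicate 1 both passed, Gli1 at 0.72 (limma adjusted p = 0.0173) and Pth1r at 0.87 (limma adjusted p = 0.00435), and 82 genes were called. The Ihh call was lost, with adjusted p of 0.0503 to 0.0647, on leaving out any WT metaphysis library, cKO metaphysis replicate 1, or cKO diaphysis replicate 1 or 3.

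**Figure D3:**
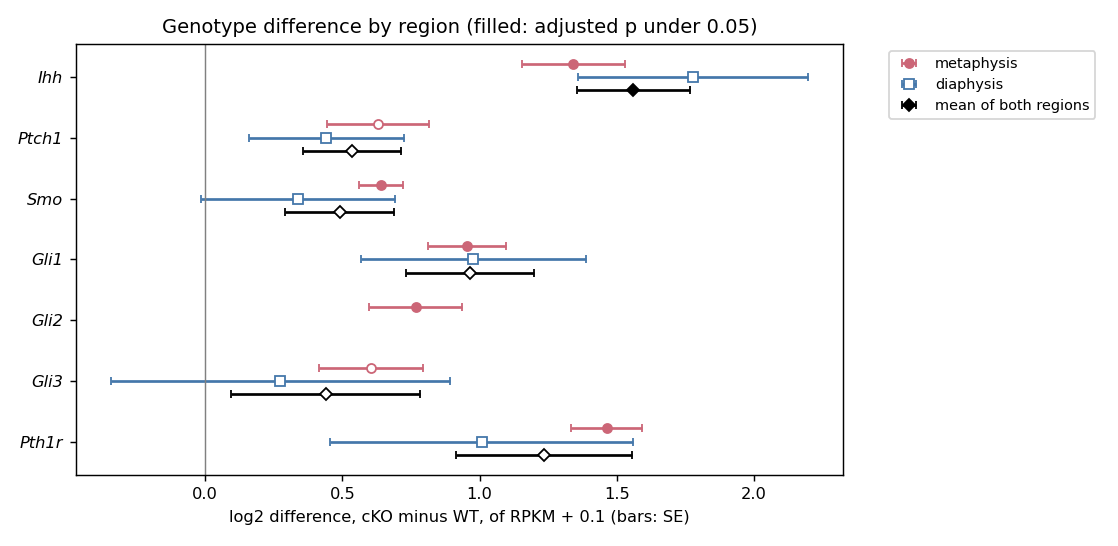
Log2 difference in RPKM + 0.1, cKO minus WT (x axis), with its SE, for the members that passed the filter, in the metaphysis, in the diaphysis and as the mean of both; filled symbols have a limma adjusted p under 0.05. Ihh and Pth1r lie farthest right in the metaphysis, at 1.34 and 1.46, and no diaphysis symbol is filled.

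The tables of the 2 regions were made separately, so levels are set side by side with no test. In WT the mean metaphysis level over the mean diaphysis level was 5.84 for Ihh and 2.11 for Hhip. It was 1.27 to 1.48 for Ptch1, Gli1, Gli2, Gli3 and Pth1r, 0.875 for Smo and 0.655 for Pthlh. These ratios include the low WT diaphysis replicate 1. Without it the diaphysis means were 3.89 RPKM for Ptch1, 2.60 for Gli1, 1.18 for Gli2, 1.60 for Gli3 and 55.0 for Pth1r. The metaphysis means were 5.10, 2.65, 1.10, 1.51 and 55.6 RPKM. Gli1 and Pth1r were then nearly level between regions, and Gli2 and Gli3 lay lower in the metaphysis. Ihh was thus the member that differed most by region in WT, also without that replicate (2.10 RPKM against 0.430 RPKM). In cKO the ratio was again highest for Ihh, at 3.99, then 2.70 for Gli2 and 2.46 for Hhip. Within the WT metaphysis the order of levels was Pth1r, Smo, Ptch1, Gli1, Ihh, Gli3, Gli2, Hhip and Pthlh, and no 2 neighbours overlapped. In the mutant metaphysis Ihh stood between Ptch1 and Gli1 in its mean and overlapped both. Gli3 with Gli2, and Hhip with Pthlh, overlapped there as well. In the WT diaphysis Smo and Ptch1 were the only neighbours apart, and Ihh stood next to last. In the mutant diaphysis Ihh stood between Gli1 and Gli3 and overlapped Gli3.

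Other cell type markers moved with genotype in the metaphysis, where 7.51% of all genes tested were called higher and 3.89% lower. The 5 hypertrophic chondrocyte markers were Col10a1, Mmp13, Ibsp, Spp1 and Panx3. They summed to 1963 to 2461 RPKM in WT and 4557 to 5886 RPKM in cKO, and all 5 were called higher. The 13 chondrocyte markers summed to 827 to 1131 RPKM in WT and 1403 to 2473 RPKM in cKO, with 7 of 13 called higher. Neither list thus overlapped between genotypes. The hypertrophic list is not specific to cartilage, and Ibsp also stands in the osteoblast list. In WT diaphysis replicate 3 the hypertrophic list summed to 2508 RPKM with Col10a1 at 12.8 RPKM. Col10a1 was 112 to 211 RPKM in the WT metaphysis. The 9 osteoblast markers summed to 13185 to 17581 RPKM in WT and 19846 to 21341 RPKM in cKO, with 6 of 9 called higher. Endothelial markers summed to 116 to 119 RPKM in WT and 172 to 179 RPKM in cKO, with 6 of 8 called higher. Osteoclast markers were called higher in 5 of the 6 tested. The osteocyte list, dominated by Dmp1, summed to 230 to 357 RPKM in WT and 395 to 574 RPKM in cKO, without overlap. Of its 5 tested markers only Pdpn was called, lower, and Dmp1 had a log2 difference of 0.68 ± 0.19 (SE, limma adjusted p = 0.0596). Of the blood-forming lists 2 went the other way, while neutrophil markers overlapped (7706 to 13047 RPKM in WT, 7168 to 10197 RPKM in cKO). Erythroid markers summed to 1053 to 1279 RPKM in WT and 440 to 801 RPKM in cKO, with 3 of 8 called lower, and 5 of 8 B lymphoid markers were called lower. None of the markers in these lists was at 0 in a metaphysis library. In such bulk samples more cells of a type and more RNA per cell cannot be told apart.

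In the diaphysis no marker was called. The chondrocyte list summed to 106 to 593 RPKM in WT and 264 to 404 RPKM in cKO there, with 1 marker at 0 in a WT library and 6 of 13 tested. The hypertrophic list summed to 406 to 2508 RPKM in WT and 1248 to 1971 RPKM in cKO, and the osteoblast list to 4308 to 25603 RPKM and 9970 to 14393 RPKM. These sums overlapped between genotypes with all libraries. Without WT replicate 1 the WT range was 416 to 593 RPKM for chondrocyte and 17969 to 25603 RPKM for osteoblast markers, so that both lists lay wholly lower in cKO, as did the tendon and periosteum and the adipocyte lists, while the hypertrophic list still overlapped. The osteocyte list was higher in cKO with no overlap, at 130 to 488 RPKM in WT (363 to 488 RPKM without replicate 1) and 507 to 564 RPKM in cKO. Its sum rests on a few genes. Mean levels in WT and cKO were 199 and 267 RPKM for Dmp1, 55.7 and 161 for Mepe, and 34.3 and 72.8 for Sost. Pdpn went the other way, at 9.07 and 5.50 RPKM. Like Ihh and Gli1 the summed list was thus higher without overlap in both regions, and its part in their difference was not tested.

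With the mean level of a marker list as a covariate, no member passed in the metaphysis. With chondrocyte markers limma called 0 genes (1281, or 10.1%, at an unadjusted p under 0.05, 7 of 7 members among them), and with erythroid and B lymphoid markers 1 gene (1508 unadjusted, or 11.9%, 7 members). The hypertrophic and the osteoblast covariates were added after seeing the data. Each left 0 genes called, with 496 (3.92%) and 492 (3.89%) at an unadjusted p under 0.05, of which 0 and 2 were members. Dlx3 itself missed the threshold in all 4 fits, at log2 differences of -2.41 to -1.76. The Ihh difference was 1.44 ± 0.42 (SE) with chondrocyte markers, 2.07 ± 0.31 with erythroid and B lymphoid markers, 1.51 ± 0.69 with hypertrophic markers and 1.501 ± 0.60 with osteoblast markers. The Pth1r difference was 1.34 ± 0.29 and 1.44 ± 0.30 with the first pair, and 0.70 ± 0.36 and 0.79 ± 0.29 with hypertrophic and osteoblast markers. Without a covariate the differences were 1.34 ± 0.19 for Ihh and 1.46 ± 0.13 for Pth1r (SE). The Ihh difference was thus no smaller in any of the 4 fits, that of Pth1r was smaller in all 4, and every SE was larger. The summed marker lists used as covariates did not overlap between genotypes. These fits can therefore hardly separate genotype from marker level in 6 libraries, and nothing is read from the sizes. Ptch1 turned to -0.56 ± 0.47 with hypertrophic markers and to -0.25 ± 0.46 with osteoblast markers.

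Ratios within a library do not depend on its depth or on how much of it other transcripts take up. Pth1r per Col1a1 in the metaphysis was 0.00691, 0.00804 and 0.00758 in WT and 0.0129, 0.0174 and 0.0156 in cKO. In the diaphysis it was 0.00664, 0.00562 and 0.00566 in WT and 0.0123, 0.0120 and 0.0122 in cKO. The genotypes were apart in both regions, and WT diaphysis replicate 1, low in both genes, lay with its group. In the diaphysis the denominator differed more than Pth1r: without replicate 1, Col1a1 was 8279 and 11230 RPKM in WT and 4998, 5972 and 5416 RPKM in cKO, while Pth1r overlapped at a ratio of means of 1.21. In the metaphysis both were higher in cKO, Col1a1 at 6384 to 8543 RPKM in WT and 9310 to 10462 RPKM in cKO. Of the 6 members past the filter in both regions, Ihh, Gli1, Gli3 and Pth1r had a higher ratio to Col1a1 with no overlap in either region, as had 0.82% of genes. Gli3 itself was not higher in the diaphysis, with means of 1.15 RPKM in WT and 1.11 RPKM in cKO. Without WT replicate 1 it lay wholly lower in cKO, at a ratio of means of 0.696. Without the ratio, only Ihh and Gli1 did so, as did 0.868% of genes. Ihh passed the diaphysis filter only through its mutant libraries, so its place in both counts is a description and is not set against these shares.

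Pth1r per Alpl, alkaline phosphatase, was 0.385 to 0.425 in WT and 0.456 to 0.522 in cKO in the metaphysis, and overlapped in the diaphysis (0.259 to 0.304 and 0.285 to 0.502). Gli1 per Smo, a response gene over the transducer, was 0.127 to 0.155 in WT and 0.205 to 0.286 in cKO in the diaphysis. In the metaphysis it was 0.211 to 0.241 and 0.246 to 0.318. Gli1 per Smo was thus free of overlap in both regions, narrowly in the metaphysis, and in the diaphysis also without WT replicate 1. The share of all genes with such a ratio to Smo was not computed. Ptch1 per Smo, with another target on top, overlapped in the metaphysis (0.364 to 0.512 in WT, 0.360 to 0.483 in cKO). In the diaphysis it overlapped as well (0.226 to 0.373 and 0.242 to 0.330), but not without WT replicate 1. Gli1 per Ptch1 overlapped in both regions.

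Ihh was also set against cartilage genes in each region. In the metaphysis Ihh per Acan, the cartilage proteoglycan aggrecan, was 0.0712 to 0.0748 in WT and 0.0525 to 0.112 in cKO. Ihh per Col10a1, the collagen of hypertrophic cartilage, was 0.00924 to 0.0189 and 0.0142 to 0.0162. Ihh per Col2a1 was 0.00349 to 0.00622 and 0.00291 to 0.00875. All 3 ratios overlapped between genotypes in the metaphysis. In the diaphysis Ihh per Col10a1 was 0.0429 to 0.113 in WT and 0.213 to 0.528 in cKO, and Ihh per Col2a1 was 0.00253 to 0.00569 and 0.00886 to 0.0246, both with no overlap, with or without WT replicate 1. Ihh per Acan overlapped there with all libraries but not without that one (0.0425 to 0.0757 in WT, 0.256 to 0.399 in cKO). Chondrocyte markers themselves lay lower in cKO without it, as given above. The difference between the regions in these ratios was not tested. Ihh passed the diaphysis filter only through its mutant libraries, so its diaphysis ratios are a description. The share of all genes with such ratios was not computed. Diaphysis WT levels were also low, with Ihh on about 14.0 to 45.2 reads and Col10a1 at 1.92 to 12.8 RPKM.

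**Figure D4:**
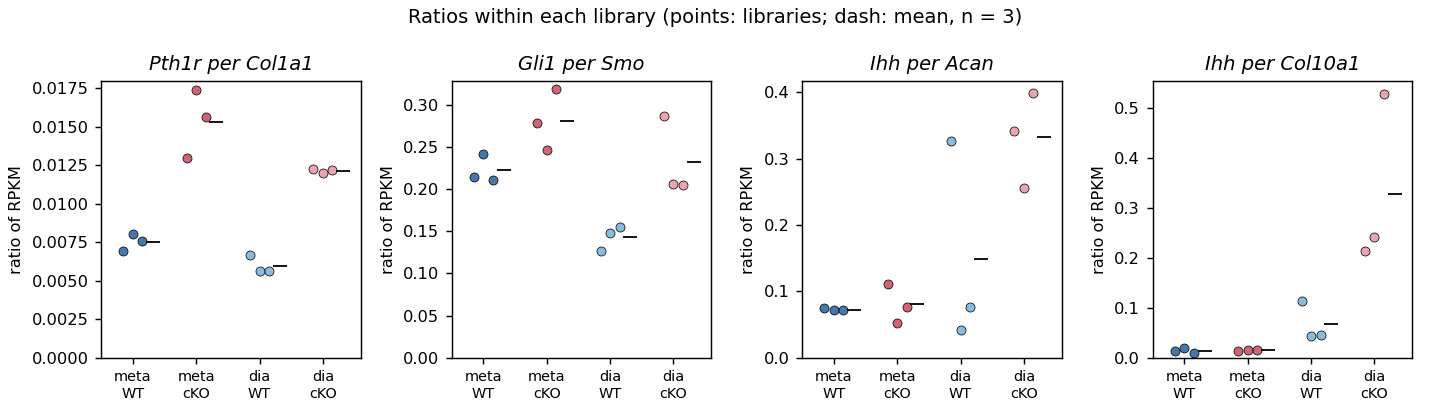
Ratio of RPKM (y axes, from 0) within each library for 4 pairs of genes; points are libraries and dashes the mean of 3. Pth1r per Col1a1 is apart between genotypes in both regions (0.00562 to 0.00804 in all WT libraries, 0.0120 to 0.0174 in all cKO libraries). Ihh per Col10a1 is apart in the diaphysis only, where Ihh passed the filter only through its mutant libraries.

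Other genes of both pathways were read from 5 lists, chosen like the members with earlier results of these data known. In the metaphysis the median log2 difference over all genes tested was -0.036, and 7.51% of them were called higher and 3.89% lower. The count of each list is to be read against these shares. Of 15 genes for hedgehog ligands, release and reception, 7 were tested and 1 was called higher, with a median of 0.44. That was Scube3, which encodes a secreted protein of the family that helps hedgehog ligands leave cells. It had 0.522 ± 0.040 RPKM in controls against 1.52 ± 0.50 RPKM in mutants (SD, n = 3). The log2 difference was 1.33 ± 0.30 (SE, limma adjusted p = 0.0329). Scube3 did not exceed 0.566 RPKM in a WT metaphysis library and passed the filter only through its mutant libraries. It thus had to differ to be tested, and nothing is read from its call. The other hedgehog ligands were scarce: Dhh did not exceed 0.504 RPKM in any library, and Shh was listed at 0 in every mutant metaphysis library and did not exceed 0.0214 RPKM elsewhere.

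Of 21 genes for hedgehog transduction and the primary cilium, the organelle through which the signal passes, 18 were tested. Of these 18 genes 3 were called higher, set against 7.51% of all genes, with a median of 0.074. Kif7, a ciliary kinesin that regulates the Gli proteins, went from 1.92 ± 0.49 to 3.90 ± 0.24 RPKM (SD). Evc2, which sits with Smo at the base of the cilium, went from 2.46 ± 0.28 to 4.0 ± 0.23 RPKM. Both rose, with limma adjusted p of 0.0208 and 0.0231. Tulp3, a carrier of membrane proteins into cilia, rose by a log2 difference of 0.44 ± 0.11 (SE, limma adjusted p = 0.0424).

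Of 16 hedgehog target genes, 10 were tested, 6 were called higher and 0 lower, with a median of 0.77. Ccnd1, which encodes cyclin D1, had 9.15 ± 1.15 RPKM in controls against 23.5 ± 5.4 RPKM in mutants (SD; log2 difference 1.33 ± 0.18 SE, limma adjusted p = 0.0117). The forkhead factors Foxc2 and Foxc1 rose by 1.31 ± 0.22 and 1.22 ± 0.20 (SE, limma adjusted p = 0.0178 and 0.0168). The other 3 were Bmp2, Runx2 and Sp7, of which the latter pair, the osteoblast transcription factors, also stand in the osteoblast list.

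Of 26 genes for signal transduction at the parathyroid hormone receptor, 24 were tested, 3 were called higher and 1 lower, with a median of 0.014. The adenylyl cyclase Adcy3 had 11.7 ± 1.1 RPKM in controls against 20.4 ± 0.75 RPKM in mutants (SD; log2 difference 0.80 ± 0.10 SE, limma adjusted p = 0.0108). Gna11, a G protein alpha subunit of the phospholipase C branch, rose by 0.63 ± 0.08 (SE, limma adjusted p = 0.0117). Prkar2b, a regulatory subunit of protein kinase A, fell by 0.62 (limma adjusted p = 0.0497). Hdac5 was the remaining gene called higher. The share of this list that was called, 4 of 24, is set against 11.4% of all genes.

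Of 18 parathyroid hormone response genes, 14 were tested, 3 were called higher and 0 lower, with a median of 0.36. The list was not sorted by whether the hormone raises or lowers a gene, so its median gives no direction of response. Sost and Mepe, neither of them called, also stand in the osteocyte list. Mmp13, the collagenase of hypertrophic cartilage and bone, had 299 ± 68 RPKM in controls against 602 ± 116 RPKM in mutants (SD; log2 difference 1.01 ± 0.20 SE, limma adjusted p = 0.0232), and it also stands in the hypertrophic list. The cytokine Lif rose by 0.93 ± 0.16 (SE, limma adjusted p = 0.0171). Tnfsf11, which encodes RANKL, the osteoclast-inducing ligand, rose by 0.74 ± 0.19 (SE, limma adjusted p = 0.0472). In the diaphysis none of the 5 lists had a called gene, and their medians lay between -0.24 and 0.15. Without WT replicate 1 all 5 medians were below 0, from -0.87 for ligands, release and reception to -0.086 for receptor transduction, and -0.26 for the hedgehog targets.

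**Figure D5:**
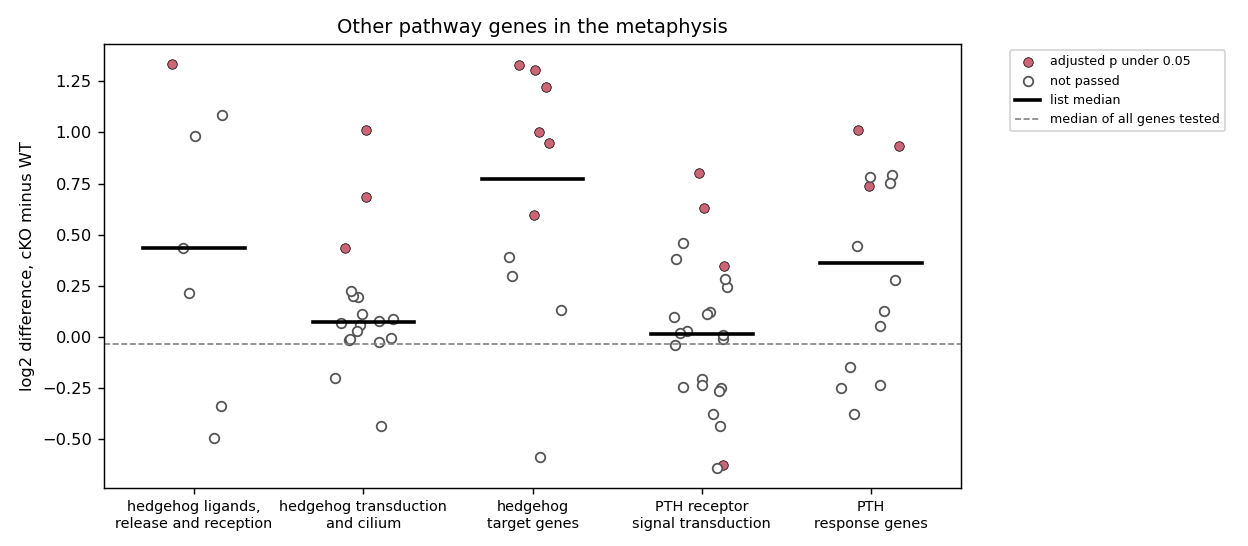
Log2 difference in the metaphysis, cKO minus WT (y axis), of the tested genes of 5 pathway lists without the 9 members; each point is a gene, filled where the limma adjusted p is under 0.05, bars are list medians and the dashed line the median of all genes tested. The hedgehog target list has the highest median, 0.77, and the receptor transduction list the lowest, 0.014.

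The genes most like 3 of the members were found by Pearson's r of log2(RPKM + 0.1), centred on each region, over all 12 libraries and 12320 genes. These values describe libraries that share genotype and tissue makeup and carry no test. Closest to Pth1r were Cspg4 (r = 0.995), Unc5b (0.990), Trip6 (0.989), Gpc1 (0.988) and Plekhg5 (0.988). Closest to Ihh were Syt12 (r = 0.947), Dlx4 (0.927), Tspan6 (0.926), Hey2 (0.920) and Lamc3 (0.916). Dlx4 is the neighbour of Dlx3 in the same gene cluster, and its metaphysis log2 difference was 2.37 (limma adjusted p = 0.00462). Closest to Ptch1 were Sept11 (r = 0.957), Fubp3 (0.952), Gtf2i (0.941), Zfp408 (0.938) and Stab1 (0.932). The r of each of the 15 was at least 0.871 within either region alone, and at least 0.892 over the 11 libraries without WT diaphysis replicate 1. The genes were picked by r over these same libraries, so high values in parts of them are no separate check.

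The metaphysis calls depended on single libraries. Without WT replicate 1, 2 members stayed past the threshold (Smo and Pth1r), and without cKO replicate 3 only Pth1r did. Gli2 was lost on leaving out any library other than cKO replicate 2, and no member changed sign on leaving out a library. With the spread estimated over all 12 libraries, 0 of the 6 members tested and 7 of 12321 genes were called, with 5 members among the 2052 genes (16.7%) at an unadjusted p under 0.05.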

How the data were processed

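RNA was taken from femur diaphysis and metaphysis with Trizol, and libraries were made with an unstranded TruSeq kit, per the labels' protocols, so antisense reads cannot be told apart. The authors deposited 1 table per region with RPKM values per RefSeq transcript, per the file headers. Tools listed in the submitters' processing notes are Partek 6.6, Bowtie 0.12.7.0, TopHat 1.3.2 and CASAVA 1.8.2, with the build mm9. How reads were shared between transcripts, and the annotation release, are not stated there.

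The members, the gene lists and the rules for naming genes were chosen with earlier results of these data known. Every member is named, then up to 3 called genes per pathway list by size of difference and 5 like genes each for Ihh, Ptch1 and Pth1r. Bmp2, Runx2, Sp7, Hdac5, Pdpn, Dmp1, Myh1, Scx, Dhh, Shh, Ibsp, Spp1, Panx3, Sost and Mepe were named after their values were seen. Transcripts were summed per symbol, log2(RPKM + 0.1) was fitted with a mean-variance trend in limma 3.58.1 under R 4.3.3, each region alone, and both regions together for their difference and mean. The procedure was tested on simulated data in which the spread of each gene was capped at the median spread. That checks the code and does not show how well the fit does on these libraries. Of the low values 72.7% to 77.5% lay within 0.1 of a whole read, too few to rebuild counts. Alternatives changed the pseudocount, filter, scaling, transcript choice, trend, libraries, spread and covariates. Loci are from GENCODE M1 on mm9, and sequences were read from RefSeq windows. Other marker lists were read as well: skeletal muscle, tendon and periosteum, adipocyte and globin genes, of which Myh1 of muscle was called lower and Scx of tendon higher in the metaphysis.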

Additional observations from a re-analysis of the deposited data

How the results depend on the processing

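No paired analysis was possible because the replicate numbers only follow the order of the records, and the labels pair no libraries across groups. In the metaphysis without a filter 789 genes were called, and with the spread shared by all 12 libraries 0 members and 7 genes. With a covariate, 0 members passed in each of the 4 fits, with 0 genes called for the chondrocyte, hypertrophic and osteoblast covariates and 1 gene for the erythroid and B lymphoid one. With the hypertrophic covariate the difference turned to -0.56 for Ptch1, -0.35 for Gli3, -0.16 for Kif7, -0.10 for Mmp13 and -0.25 for Tnfsf11. Mmp13 is itself 1 of the genes averaged in that covariate, so nothing is read from its value. With the osteoblast covariate the difference turned to -0.25 for Ptch1 and -0.28 for Tnfsf11. The cause was not tested. On leaving out single libraries, 1 to 6 members and 163 to 1424 genes were called in the metaphysis, the lowest counts of both without cKO replicate 3. Ptch1 joined the calls without cKO replicate 2.

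In the diaphysis 1 gene (Dlx3) was called with the hypertrophic and 1 with the osteoblast covariate. Leaving out single libraries moved the diaphysis difference of Smo from -0.091 to 0.63 and that of Gli3 from -0.47 to 0.76. For the difference between regions, 0 to 1 members and 0 to 241 genes were called on leaving out single libraries, and 2 genes without a filter. That difference ran from -0.044 to 0.38 for Ptch1, from -0.35 to 0.46 for Gli1, from -0.16 to 1.07 for Gli3 and from -0.020 to 1.18 for Pth1r, with the highest value without WT diaphysis replicate 1 in each. With a pseudocount of 1 it turned to 0.24 for Ihh and 0.080 for Gli1, and with globin left out to 0.015 for Gli1. For the mean of both regions, 31 genes were called with a pseudocount of 1, 36 without a filter and 13 with a filter of 3 RPKM, where 0 members passed since Ihh was no longer tested. Leaving out single libraries gave 0 to 3 members and 2 to 82 genes there. Rescaling moved the median of all genes by at most 0.060 on the log2 scale. Depth limits Pthlh, Hhip and diaphysis Ihh.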
